A study of Mus musculus with 12 samples.

Results

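Transcripts of 10 transcription factors that mark or maintain bulge stem cells were followed through 2 experiments on hair follicle stem cells (HFSCs) of C57BL/6J mice. These genes were Sox9, Lhx2, Nfatc1, Foxc1, Tbx1, Nfib, Nfix, Runx1, Trp63 and Hopx, found by gene symbol, and they stand among 17885 genes in the first table and 21915 genes in the second. All 10 passed the filter on low values in both, beside 15008 and 13457 genes tested. HFSCs had been sorted from back skin for CD34 and EpCAM on the surface, a high level of α6-integrin and no Sca1, and total RNA was amplified and sequenced.

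The first experiment compared 3 libraries labelled Eed iKO with 3 control libraries, all from mice at postnatal day 70. Eed encodes a core subunit of Polycomb repressive complex 2 (PRC2), the enzyme that places the repressive histone mark H3K27me3. The Eed iKO mice carried K15-CrePGR, a Cre recombinase that is active in the bulge after the drug RU-486, and Eed fl/fl alleles, and are given the genotype Eed -/- in the labels. RU-486 was applied to the skin once a day for 7 days from postnatal day 50. According to the methods, the control mice received ethanol, and the labels call them wild type. Loss of Eed and exposure to RU-486 therefore cannot be told apart. The second experiment compared 3 libraries of wild-type HFSCs in anagen, the growth phase, at postnatal day 28 to 30, with 3 in telogen, the resting phase, at postnatal day 50 to 52. Hair phase and age cannot be told apart there. The 2 tables were normalized separately, so their levels are not compared with each other.

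The bulge is the niche of the follicle that holds its stem cells, which stay quiescent for most of the hair cycle and divide briefly when a new hair grows. SOX9, LHX2 and the nuclear factor I proteins NFIB and NFIX bind enhancers of bulge genes and keep the cells in the follicle lineage. NFATC1, FOXC1 and TBX1 are known for holding the cells in quiescence or returning them to it. RUNX1 is known for promoting the entry into growth. p63, encoded by Trp63, is the factor that all basal layers of stratified epithelium depend on. HOPX is a small homeodomain protein that does not bind DNA and marks bulge cells.

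All 10 transcripts were detected in every library. In the first table, the share of tested genes with a lower mean ran from 90.0% for Hopx to 99.9% for Nfib. In the hair cycle table it ran from 48.0% for Hopx and 65.7% for Foxc1 to 99.9% for Nfib. Levels between genes were compared as normalized counts per kilobase of the median protein-coding transcript of the annotation. On this scale, Nfix came first in the control libraries at 40875 ± 3196 (SD, n = 3), followed by Nfib at 35681 ± 1930 and Lhx2 at 34960 ± 4057. These 3 overlapped with their neighbours in the order, and all lay above Trp63 at 19375 ± 2313. Sox9, Runx1, Nfatc1, Tbx1 and Hopx followed, and Foxc1 was lowest at 1139 ± 251. In telogen, the order per kilobase was Nfib at 10180 ± 812, Lhx2 at 7571 ± 1715 and Trp63 at 4310 ± 683, with no overlap between neighbours. The lowest Nfib library (9551) and the highest Lhx2 library (9547) nearly met. In anagen, Trp63 stood second at 8053 ± 218 and Lhx2 next at 5438 ± 1004, again without overlap. Foxc1 was lowest in all 4 groups. The annotated transcripts differ in length, for Lhx2 from 375 to 2840 bases, and per kilobase of the longest transcript the order changed. Trp63 then came first in anagen at 5496 ± 149 and ranked below Nfib and Lhx2 in telogen at 2941 ± 466. In telogen the libraries of Lhx2 then overlapped both those of Nfib and those of Trp63.

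**Figure D1:**
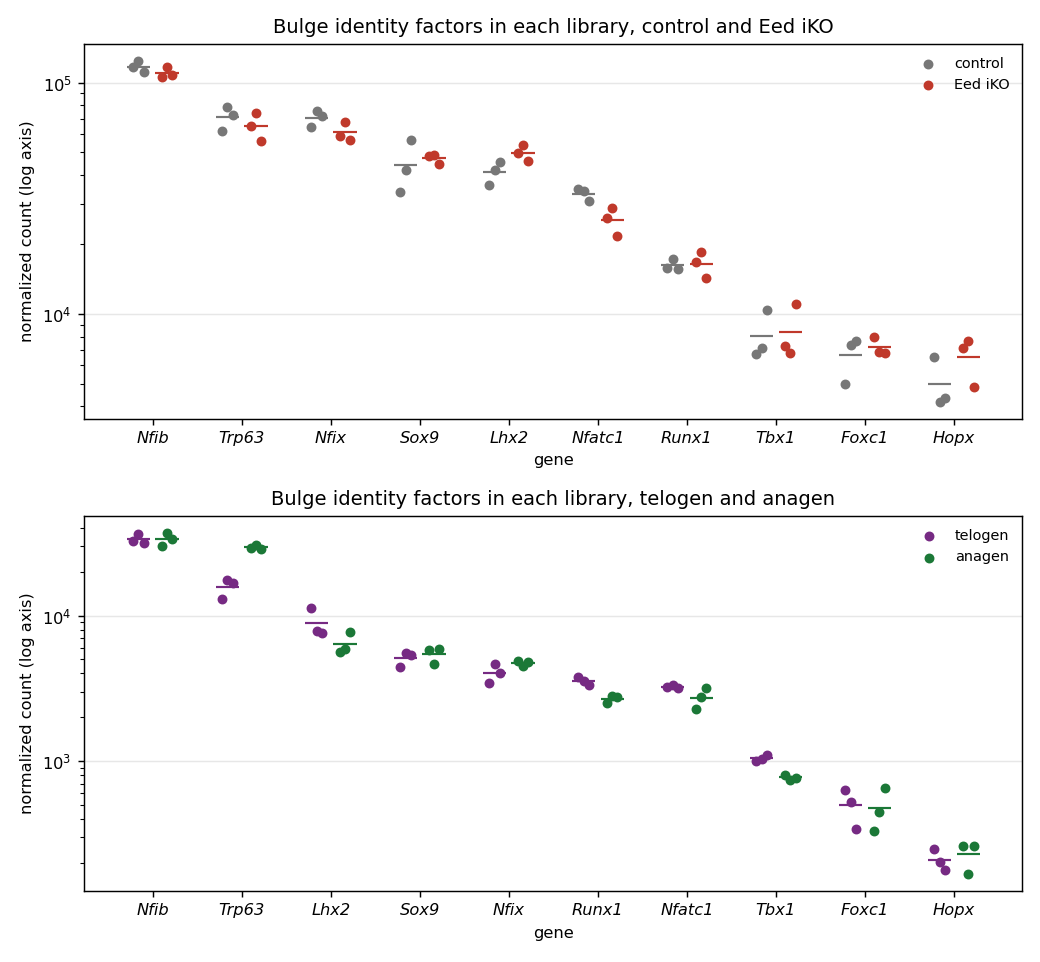
Normalized counts (log axis) of the 10 factors in each library of the first experiment (top) and of the hair cycle (bottom), with points for libraries and lines for group means. Trp63 is the factor whose anagen libraries (28812 to 30368) stand clear above its telogen libraries (12924 to 17571).

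The first table rested on 33269583 to 57063586 recovered reads in each library, whereas read numbers of the anagen and telogen libraries are unknown. Before the factors, the targeted gene and the purity of the sort were checked. Eed itself had normalized counts of 1084, 1249 and 950 in the control libraries and of 933, 1361 and 1001 in the libraries labelled Eed iKO. The groups overlapped, and the difference was -0.01 on the log2 scale (adjusted p = 0.993, limma with Benjamini-Hochberg adjustment). The value covers the whole gene and does not show whether single exons were lost, so the libraries are called by their label throughout. The study itself reported less Eed mRNA by quantitative PCR and a loss of H3K27me3 staining in HFSCs of Eed iKO mice. The bulge and gate markers Krt15, Cd34, Itga6 and Epcam were present in every library. Ly6a, which encodes the excluded surface protein Sca1, reached at most 170 in the first table and 28.5 in the second. The summed immune markers ranged from 201 to 662 and from 95.4 to 363 in the 2 tables. Markers of the epidermis between follicles varied between libraries. The sum over the 5 listed, Ly6a, Krt1, Krt10, Lor and Ivl, ran from 7769 to 39749 in control libraries. It ran from 4474 to 57525 in those labelled Eed iKO.

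The first comparison asks whether the identity factors differed between libraries labelled Eed iKO and control libraries. None of the 10 passed an adjusted p under 0.05 in limma, the rule for a call, where 4 of the 15008 genes tested (0.0267%) did. edgeR and DESeq2, run on whole reads recovered from the table, also called 0 of the 10, and DESeq2 called 672 genes in all. The study's methods set a log2 difference over 1.5 in either direction with an unadjusted p under 0.05. By these thresholds, 0 of the 10 and 1.75% of genes passed. A figure legend of the study instead states an absolute fold change of at least 1.5 with an adjusted p under 0.05. At an unadjusted p under 0.05 alone, 1 of the 10 and 14.7% of genes passed, and 2 of the 10 and 20.2% of genes had groups that did not overlap. The median absolute log2 difference was 0.14 over the 10 factors and 0.30 over all genes tested, most of which had lower counts. The 95% confidence intervals of the 10 differences lay between -0.71 and 0.86 on the log2 scale, which leaves out a 2-fold change either way for each factor.

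Nfatc1 was the factor with an unadjusted p under 0.05. It encodes a calcineurin-regulated factor active in quiescent bulge cells, where it is known to repress Cdk4. Its normalized counts were 34575, 34106 and 30707 in the control libraries and 26047, 28802 and 21662 in the libraries labelled Eed iKO. All 3 of the latter lay below all 3 controls, with a log2 difference of -0.39 (SE 0.15, 95% CI -0.71 to -0.06, n = 3 per group, limma unadjusted p = 0.024). The adjusted p was 0.259 in limma, and 0.158 with DESeq2, so the difference did not pass the threshold. Lhx2, the LIM-homeodomain factor, was the other gene whose groups did not overlap, in the opposite direction. It had 35984, 41817 and 45431 in controls against 49686, 53683 and 45941. Its lowest library labelled Eed iKO exceeded the highest control by a small margin, and the log2 difference was 0.28 (SE 0.15, 95% CI -0.04 to 0.61, adjusted p = 0.402).

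The other 8 factors overlapped between the groups. Nfib had 116797, 124229 and 111576 in controls and 105715, 116828 and 107728 in the libraries labelled Eed iKO, a log2 difference of -0.09 (95% CI -0.43 to 0.24). Nfix, its paralog, had 64500, 75217 and 72176 against 59106, 67992 and 56342, a difference of -0.21 (95% CI -0.54 to 0.12). Both NFI genes varied within narrow ranges, with coefficients of variation of 5.38% to 9.96% in the control libraries and those labelled Eed iKO. Trp63 had 61858, 78618 and 72379 against 65217, 73919 and 55964, a difference of -0.13 (95% CI -0.49 to 0.24). Sox9 had 33573, 41896 and 56381 against 48252, 48920 and 44695, a difference of 0.14 (95% CI -0.27 to 0.55). The spread of Sox9 lay mostly in the controls, with a coefficient of variation of 26.3% there and of 4.80% in the libraries labelled Eed iKO.

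Runx1 differed least, with 15832, 17225 and 15696 against 16723, 18495 and 14335 and a log2 difference of 0.02 (95% CI -0.29 to 0.32). Tbx1, a T-box factor, had 6738, 7103 and 10408 against 7298, 6789 and 11021. Replicate 3 was the highest of its group in both conditions. Foxc1, a forkhead factor, had 4963, 7379 and 7620 against 7955, 6876 and 6784, and the difference was 0.14 (95% CI -0.26 to 0.53). Hopx had 6508, 4189 and 4333 against 7105, 7637 and 4838, a difference of 0.38 (95% CI -0.09 to 0.86) with 1 control library inside the range of the other group. Of the exon bases of Hopx, 27.2% also lie on exons of other annotated genes, and no source states that reads were assigned by strand, so its counts are less certain than the others. For 6 of 6 proliferation markers the difference was above 0, with a median of 1.10 on the log2 scale, and 0 were called. Their sum was 1199 to 10344 in libraries labelled Eed iKO and 1470 to 3995 in controls, and among them only Cdk1 had groups that did not overlap (1.80, unadjusted p = 0.018 in limma, adjusted p = 0.230). Of 7 bulge and gate markers, 0 were called and 4 had groups that did not overlap, beside 20.2% of all genes tested. Of the 4, Itga6 (0.41, unadjusted p = 0.013 in limma), Krt15 and Krt14 were higher in every library labelled Eed iKO. Lgr5 was lower in every one. The part of these markers in the values of the factors was not tested. In bulk RNA, fewer cells of a type and less RNA per cell cannot be told apart.

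**Figure D2:**
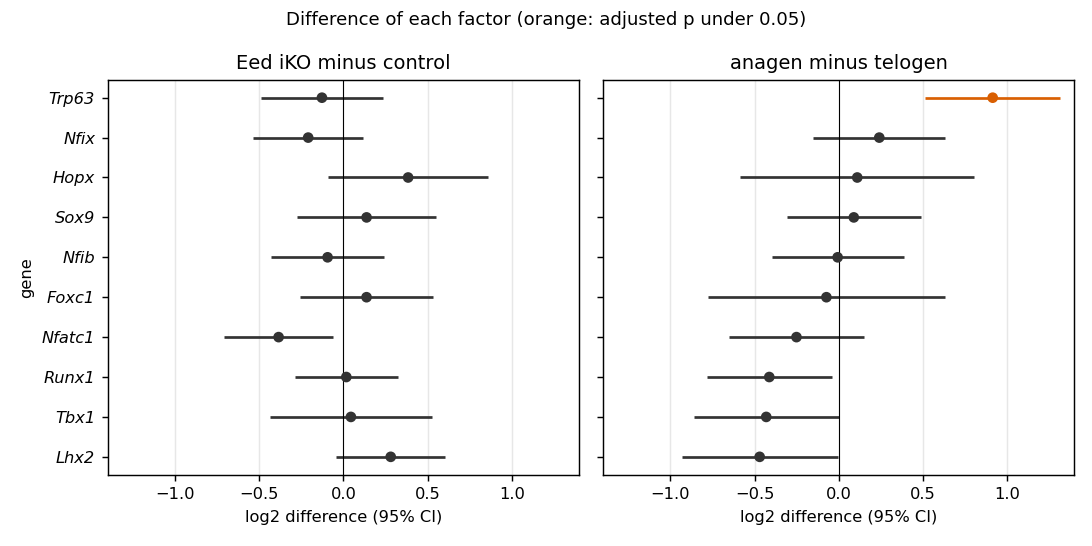
Log2 difference of each factor (point) with its 95% confidence interval (line) for Eed iKO minus control (left) and anagen minus telogen (right), 3 libraries per group. On the left no factor passes an adjusted p under 0.05, and on the right Trp63 does, at 0.91.

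The second comparison asks whether the same factors differ between growing and resting follicles. Trp63 was higher in anagen, and it was the 1 factor of 10 called, where 11.6% of the 13457 genes tested were called. Its normalized counts were 29290, 30368 and 28812 in anagen and 12924, 17571 and 16855 in telogen. The anagen libraries lay close together, with a coefficient of variation of 2.70% against 15.9% in telogen, and the groups were well apart. The level was 1.88 times higher in anagen (95% CI 1.43 to 2.49), a log2 difference of 0.91 (SE 0.18, adjusted p = 0.0093, limma with Benjamini-Hochberg adjustment). Without anagen replicate 2 the adjusted p was 0.054, and without the intensity trend of limma it was 0.073, so both ended the call at an unchanged direction. Telogen replicate 1, which had the lowest Trp63 value, also had low keratins: its Krt15 was 142406 against 416765 and 350444 in the other two telogen libraries. Without this library the Trp63 difference was 0.78, with an adjusted p of 0.0073.

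By the thresholds of the methods, here a log2 difference over 2 with an unadjusted p under 0.05, 0 of the 10 factors and 5.1% of genes passed. At an unadjusted p under 0.05 alone, 4 of the 10 factors (Trp63, Runx1, Lhx2 and Tbx1) and 27.3% of genes passed. In 4 of the 10 (Trp63, Runx1, Tbx1 and Nfatc1), and in 33.3% of genes, the groups did not overlap. The median absolute log2 difference was 0.25 over the 10 factors and 0.49 over all genes tested, most of which had lower counts.

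Trp63 lies on the plus strand of chromosome 16 (GRCm38, positions 25683763 to 25892102) and has 8 annotated protein-coding transcripts (GENCODE vM21). Of these, 4 begin at the upstream end of the gene and 4 at an internal start at position 25801916. Transcripts of the upstream start encode TAp63, and those of the internal start encode ΔNp63, the form that prevails in basal epithelium. The gene-level counts do not separate them. The relatives Trp53 and Trp73 were far lower: per kilobase, Trp63 made up 94.1% ± 0.715 (SD, n = 3) of the 3 genes in anagen and 94.1% ± 0.711 in telogen. Trp53, the tumour suppressor p53, was also higher in anagen, with 633, 632 and 757 against 182, 332 and 451, a log2 difference of 1.16 (SE 0.33, adjusted p = 0.043). In the Eed table Trp63 held 81.6% ± 0.529 of the family in controls and 80.3% ± 1.78 in libraries labelled Eed iKO.

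Markers of division and some markers of other cells differed in the same contrast. All 6 proliferation markers were called higher in anagen, with a median log2 difference of 4.95 and a summed level of 17793 to 27445 against 698 to 896. The gate gene Itga6 was higher in anagen by 0.97 (adjusted p = 0.014), and Cd34 was lower by a log2 difference of -1.21 (adjusted p = 0.0038). The summed melanocyte markers were 439 to 778 in anagen and 99.7 to 151 in telogen, with Dct called higher among 3 of 5 markers tested. Of 6 fibroblast markers, 4 were tested, of which 2 had a difference above 0 and 2 below. Col1a1 and Dcn were called higher and none was called lower. The sum over the fibroblast markers overlapped between the phases (469 to 628 and 316 to 649). None of the division, gate, melanocyte and fibroblast markers was at 0 in all 6 libraries. Among the tested immune (5), interfollicular epidermis (5), sebaceous and upper follicle (3) and endothelial (1) markers, 0 were called. Of 4 matrix progenitor markers, 1 was called lower in anagen, beside 11.6% of all genes tested called either way. The part of all these markers in the Trp63 difference was not tested.

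Runx1, Tbx1 and Lhx2 were lower in anagen at an unadjusted p under 0.05, and none of them passed after adjustment. Runx1 had 2493, 2797 and 2735 in anagen and 3765, 3563 and 3354 in telogen. All anagen libraries lay below all telogen libraries, with a log2 difference of -0.41 (SE 0.17, 95% CI -0.79 to -0.04, adjusted p = 0.144). Tbx1 had 807, 745 and 765 against 994, 1037 and 1093, also without overlap, and a difference of -0.43 (SE 0.20, 95% CI -0.86 to -0.00083, adjusted p = 0.182). Lhx2 had 5574, 5854 and 7742 against 11217, 7877 and 7593. Here anagen replicate 3 exceeded the lowest telogen library, and the difference was -0.47 (SE 0.21, 95% CI -0.93 to -0.01, adjusted p = 0.178). Without telogen replicate 1, the highest library for Lhx2, it was -0.29 with an unadjusted p of 0.135 in limma.

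Runx1 (chromosome 16, minus strand, positions 92601466 to 92826149) and Tbx1 (chromosome 16, minus strand, positions 18580979 to 18590671) each have 2 entries in the RefSeq promoter table for GRCm38.p6. Their upstream stretches are printed because both are factors whose anagen libraries lay wholly below telogen, and because gene-level counts do not say which start was used. Entries for Lhx2, Hopx, Nfix and Foxc1 were read as well, in all 13 entries for 6 factors, and a sequence of Nfatc1 was not used here. Each line gives the 250 bases before a start, 5′ to 3′ on the strand of the gene, and capitals mark CG dinucleotides, which are dense in CpG-rich promoters.
Runx1 distal promoter, chr16:92826075-92826324: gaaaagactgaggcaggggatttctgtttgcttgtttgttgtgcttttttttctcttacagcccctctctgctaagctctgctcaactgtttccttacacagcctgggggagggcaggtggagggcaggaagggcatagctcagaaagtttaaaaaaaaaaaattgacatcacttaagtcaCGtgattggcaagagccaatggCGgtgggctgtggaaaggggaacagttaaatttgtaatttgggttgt
Runx1 proximal promoter, chr16:92697330-92697579: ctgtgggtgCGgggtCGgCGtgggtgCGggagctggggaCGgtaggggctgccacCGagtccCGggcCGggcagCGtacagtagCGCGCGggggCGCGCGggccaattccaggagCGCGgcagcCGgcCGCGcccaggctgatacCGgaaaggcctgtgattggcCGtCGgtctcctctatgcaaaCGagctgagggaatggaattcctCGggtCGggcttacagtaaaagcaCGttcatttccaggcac
Tbx1 upstream promoter, chr16:18590672-18590921: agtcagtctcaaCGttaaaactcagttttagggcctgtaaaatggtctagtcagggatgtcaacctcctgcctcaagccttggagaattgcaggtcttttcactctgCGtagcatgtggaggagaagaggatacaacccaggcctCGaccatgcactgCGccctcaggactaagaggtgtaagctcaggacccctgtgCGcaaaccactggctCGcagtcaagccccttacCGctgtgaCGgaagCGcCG
Tbx1 downstream promoter, chr16:18588900-18589149: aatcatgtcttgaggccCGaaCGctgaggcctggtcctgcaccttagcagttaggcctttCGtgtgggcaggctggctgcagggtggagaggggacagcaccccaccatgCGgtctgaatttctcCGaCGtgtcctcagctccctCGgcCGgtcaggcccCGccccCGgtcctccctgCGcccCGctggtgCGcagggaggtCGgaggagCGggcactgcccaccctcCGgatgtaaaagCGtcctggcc

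The distal Runx1 stretch holds 2 CG dinucleotides and the proximal one 27, and the Tbx1 stretches hold 10 and 17. Over the whole entry of 300 bases, 14.1% of the 32851 promoters in the table had fewer CG dinucleotides than the distal Runx1 promoter and 93.0% had fewer than the proximal one. The letters TGTGGT or their reverse complement ACCACA, the core bound by RUNX proteins, occurred 2 times in the distal Runx1 entry. Neither match lay wholly within the 250 bases before the start, and a match across the start was not told apart from one after it. These letters did not occur in the proximal entry or in either Tbx1 entry, and 16.8% of all promoters held them. The T-box letters GGTGTGA or TCACACC were in no entry of Runx1 or Tbx1 and in 3.98% of all promoters. These matches describe the letters only.

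The other 6 factors did not reach an unadjusted p under 0.05 between the phases. Nfatc1 had 2293, 2744 and 3159 in anagen and 3206, 3307 and 3162 in telogen. The groups did not overlap, though anagen replicate 3 and telogen replicate 3 nearly met, and the log2 difference was -0.25 (95% CI -0.65 to 0.15, adjusted p = 0.410). Nfib had 29860, 36755 and 33683 against 32589, 36551 and 31461, a difference of -0.01 (95% CI -0.40 to 0.38), and its groups overlapped. Nfix had 4849, 4519 and 4827 against 3440, 4643 and 4014, a difference of 0.24 (95% CI -0.15 to 0.63). Sox9 had 5762, 4662 and 5866 against 4459, 5503 and 5332, a difference of 0.09 (95% CI -0.31 to 0.49). The intervals of Nfib and Sox9 leave out a change of 1.5 times in either direction. Foxc1, with 332, 450 and 654 against 632, 526 and 343, and Hopx, with 259, 168 and 260 against 248, 202 and 179, were the lowest of the 10 and had the widest intervals. These reached from -0.78 to 0.63 and from -0.59 to 0.81, so that a change of 1.5 times was within them.

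Apart from Hopx, for which no paralog was listed, each factor belongs to a family whose members can share binding sites. The paralogs were read per kilobase beside it. Runx1 made up 97.8% ± 2.20 of RUNX transcripts in anagen and 97.2% ± 1.18 in telogen, and Sox9 made up 98.8% ± 0.140 and 99.8% ± 0.412 of the SoxE genes Sox8, Sox9 and Sox10. Lhx2 accounted for nearly all of Lhx2 and Lhx9, and Foxc1 for 98.3% to 100% of Foxc1 and Foxc2 in the libraries of the hair cycle. In the first experiment, Foxc2 was listed at 0 in all 3 controls and at 1.08, 10.6 and 33.6 in the libraries labelled Eed iKO, and it was too low to pass the filter and be tested. The NFI family had more than 1 abundant member. In controls, Nfix held 47.6% ± 0.684 and Nfib 41.7% ± 2.73, with Nfic at 9.14% ± 1.92 and Nfia at 1.56% ± 0.200. The shares in libraries labelled Eed iKO were 45.9% ± 0.904 for Nfix and 43.5% ± 1.54 for Nfib. Per kilobase of the longest transcript the order turned, with Nfib at 42.9% and Nfix at 42.8% in controls and 44.6% and 41.2% in libraries labelled Eed iKO. Between the hair phases, Nfib held 74.6% ± 2.31 in anagen and 77.3% ± 1.96 in telogen, and Nfix 20.3% ± 2.19 and 17.7% ± 1.45.

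Nfatc1 shared its family with Nfatc3. Nfatc1 held 74.2% ± 1.31 of the 4 NFATc genes in controls and 70.6% ± 2.23 in libraries labelled Eed iKO. Its share was 51.1% ± 5.20 in telogen and 46.3% ± 5.83 in anagen, where Nfatc3 held 38.5% and 50.3%. Per kilobase of the longest transcript, Nfatc1 led in both phases. It then held 61.2% in telogen and 57.0% in anagen, against 30.1% and 40.3% for Nfatc3. Among the NFATc genes, Nfatc4 was the one called between the hair phases. It had 82.1, 97.8 and 90.6 in anagen against 466, 235 and 290 in telogen, a log2 difference of -1.80 (SE 0.35, adjusted p = 0.0083), and its groups did not overlap. Its share of the NFATc genes was 2.62% ± 0.172 in anagen and 9.22% ± 4.42 in telogen. Cbfb, the shared partner of the RUNX proteins, had 3890, 3156 and 2959 against 2190, 2613 and 1915, all higher in anagen, with an adjusted p of 0.084. Over the 17 paralogs and partner, 11 were tested in the hair cycle table. Of these, 1 was called higher (Trp53) and 1 lower (Nfatc4), beside 11.6% of all genes tested. The median log2 difference of the 11 was 0.31 against 0.01 over all genes tested. In the Eed experiment, 13 were tested and 0 called.

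**Figure D3:**
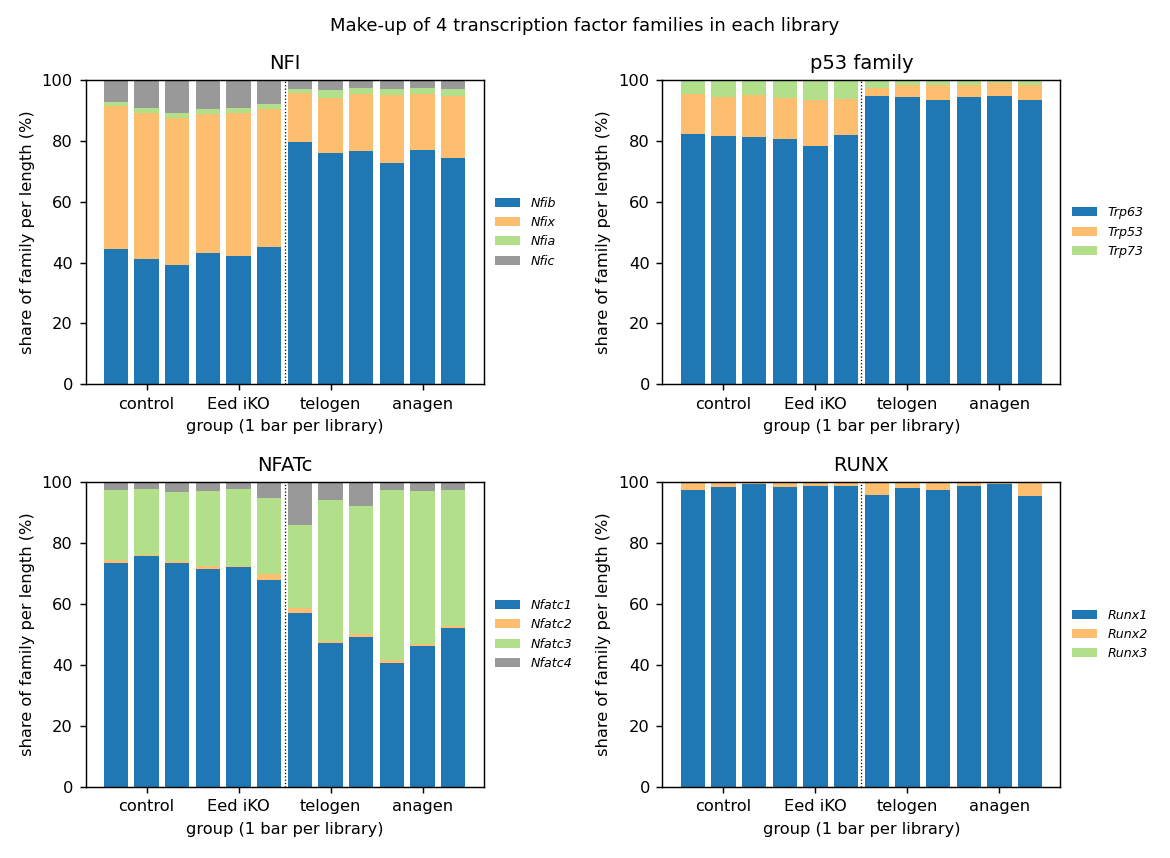
Share of each gene in its family, in normalized counts per kilobase (%, 1 bar per library, bars from 0 to 100), for the NFI, p53, NFATc and RUNX families. The dotted line parts the 2 separately normalized experiments. Runx1 and Trp63 fill most of every bar of their families, whereas Nfib shares its bar with Nfix and Nfatc1 with Nfatc3.

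A list of other transcription factors of the bulge was read beside them. Of its 10 genes, all were tested in both tables and 0 were called in the Eed table. Between the phases, where 11.6% of all genes tested were called, 1 of the 10 was. This was Gli3, a transducer of Hedgehog signals, which was lower in anagen with 772, 752 and 791 against 1666, 1178 and 1165 (log2 difference -0.77, SE 0.21, adjusted p = 0.041). The median log2 difference of this list was 0.02 in the hair cycle and -0.04 in the Eed table. In the latter, 4 of the 10 had groups that did not overlap, beside 20.2% of all genes: Tcf7l1 (-0.47), Foxp1 (-0.40) and Stat3 (-0.29) were lower in every library labelled Eed iKO and Id2 (0.58) was higher, and none was called. They are named for this after their values were seen.

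A list of 14 genes reported downstream of the factors was read in the same way. In the Eed experiment, 0 of 14 were called, with a median log2 difference of -0.02. Between the phases 3 were called, all higher in anagen, beside 11.6% of all genes tested, and the median was 0.11. Cdk4, the cyclin-dependent kinase that NFATC1 is known to repress, had 2275, 1595 and 1592 in anagen and 330, 667 and 721 in telogen. Its groups were far apart, with a log2 difference of 1.73 (SE 0.30, adjusted p = 0.0049). Edn2 is the endothelin that NFIB is known to restrain in HFSCs. It had 11.0, 30.2 and 34.4 in anagen and was listed at 0 in all 3 telogen libraries. Edn2 thus passed the filter on low values only through anagen, at counts near the floor. Its call (limma adjusted p = 0.0076) partly follows from that filter and is given as a description only. Fgfr2, a growth factor receptor that p63 is known to activate, had 7152, 8058 and 6886 against 3417, 3890 and 4119, a difference of 0.95 (SE 0.17, adjusted p = 0.0054).

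Other genes linked to p63 did not move one way. Krt5 and Krt14, the keratins of the basal layer, gave log2 differences of 0.79 and 0.83 with adjusted p-values of 0.184 and 0.062, and both were lowest in telogen replicate 1. Perp, a desmosome gene, gave 0.02, and Itgb4, an integrin of the basement membrane contact, gave -0.56 (adjusted p = 0.076). In the Eed table Krt14 was higher in every library labelled Eed iKO, with 118195, 141718 and 118609 against 62887, 65366 and 87613, at an adjusted p of 0.104 for a log2 difference of 0.82.

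**Figure D4:**
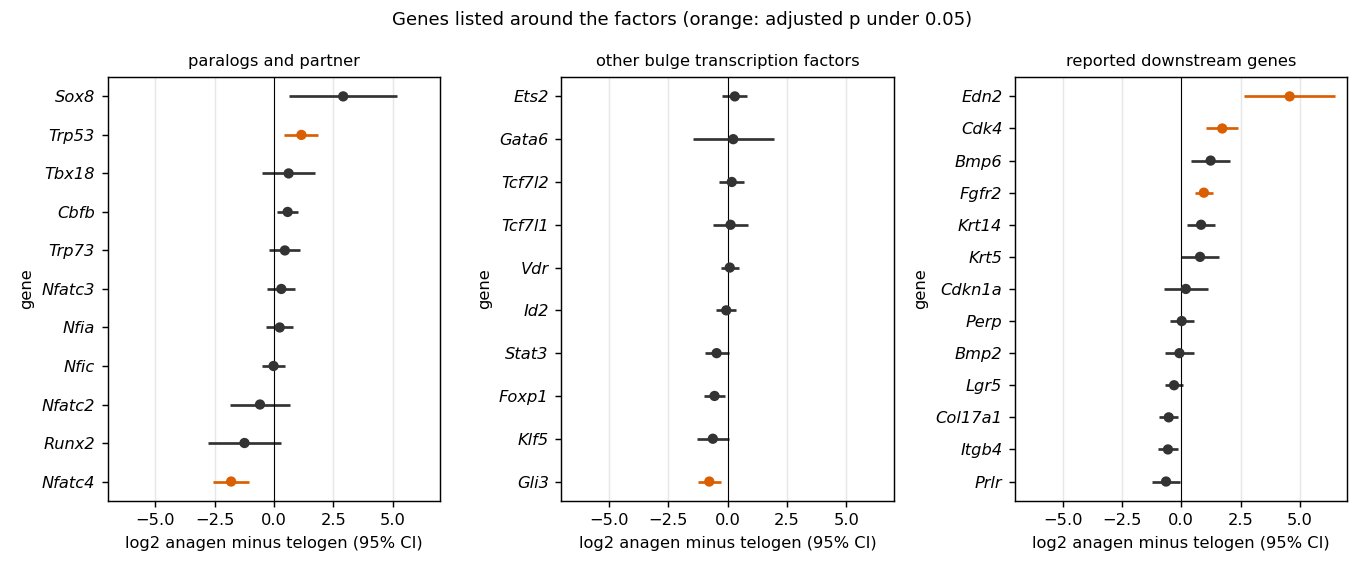
Log2 difference, anagen minus telogen, with 95% confidence intervals for tested genes of 3 lists around the factors, with called genes in orange and 1 listed gene not shown. Trp53, Edn2, Cdk4 and Fgfr2 lie to the right of 0 and Nfatc4 and Gli3 to the left, and the intervals of the other genes are drawn in black.

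Finally, each factor was set beside the 1 tested gene outside the 10 whose log2 values were most like its own over the 6 hair cycle libraries. These are the highest of 13447 correlations each, over libraries that differ in phase and age, and are given as a description. Trp63 was most like Shcbp1 (Pearson r = 0.998), Runx1 like Slc29a1 (0.998), Tbx1 like Rab39 (0.997) and Lhx2 like Ssbp1 (0.995). The others were Foxc1 with Lysmd3 (0.995), Nfix with Pigk (0.994), Nfatc1 with C130074G19Rik (0.988), Sox9 with Dph7 (0.983), Hopx with Ctsk (0.982) and Nfib with Nf2 (0.942). Nfib, whose difference between the phases was the smallest of the 10, had the lowest of these values.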

How the data were processed

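HFSC libraries of 4 groups, with 3 libraries each, were read from 2 deposited tables, and the groups were taken from the sample labels. The authors quantified reads with Kallisto 0.42.5 against mouse transcripts of Gencode (mm10) and normalized with DESeq2. The deposited values are thus a normalized signal: reads counted for a gene, scaled by the size factor of that library. The fold changes and p-values of the authors' own comparisons, also in the tables, were not used.

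Each table was tested on its own with limma 3.58.1 (R 4.3.3) on log2(value + 1), with an intensity trend and Benjamini-Hochberg adjustment over all genes that passed filterByExpr at a count minimum of 10, and the test was tried on simulated data. Directions are Eed iKO minus control and anagen minus telogen. Fold changes on this scale understate changes of low genes. edgeR 4.0.16 and DESeq2 1.42.0 were run on whole reads recovered from the first table, where 100% of values were whole multiples of 1 step (tolerance 0.1 of a step), giving 33269583 to 57063586 reads per library. For the hair cycle, 19.0% to 32.3% of values were, so its depth is unknown. The normalized totals there were 11370984 to 13186648. The plan named a count test for raw counts, and since both tables hold normalized values limma was the main test.

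Transcript lengths and positions came from GENCODE vM21 (GRCm38) and promoters from RefSeq (GRCm38.p6). The named genes are the 10 factors, Eed, markers of the sorted cells, those genes of the lists of paralogs, other bulge factors and downstream genes that were called or needed for comparison, and the gene most like each factor. Cbfb and other genes linked to p63, named without a call, were chosen after their values were seen. The 10 factors, the lists and the motifs were chosen with earlier results of these data known. The value of 1 listed downstream gene is not reported here. The methods describe biological replicates, and the labels do not tie libraries to single animals. Other pseudocounts, filters, scalings, the replicate number as a block and the removal of each library were tried.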

Additional observations from a re-analysis of the deposited data

How the results depend on the processing

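Leaving out each library in turn, the range of factors called stayed at 0 for Eed iKO against control and was 0 to 1 for anagen against telogen, with 0 without anagen replicate 2. Genes called in all ranged from 1 to 188 (188 without Eed iKO replicate 3, and 1 without each of the other 5) against 4, and from 590 (without anagen replicate 1) to 1534 against 1556. Without anagen replicate 2 or 3 the latter count was 675 or 826. By the thresholds of the methods 263 genes passed for Eed iKO and 686 for the hair cycle, with 0 factors. Without the intensity trend 2 and 842 genes were called, with 0 factors. DESeq2 on recovered reads called 672 genes for Eed iKO, and edgeR 5. Differences near 0 changed sign as libraries were left out: for Eed iKO, Sox9 from -0.041 to 0.33, Foxc1 from -0.061 to 0.25, Tbx1 from -0.17 to 0.24 and Runx1 from -0.069 to 0.12, and for the hair cycle Foxc1 from -0.33 to 0.16, Nfib from -0.078 to 0.072 and Sox9 from -0.0042 to 0.20. The cause was not tested.

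For Eed iKO and control, every same-number r was above 0 (0.039, 0.068 and 0.193), though not every library correlated best with its own number. Replicate 3 did, with r below 0 to the other numbers. For the hair cycle, every same-number r was below 0 (-0.035, -0.071 and -0.029). The numbers were not taken to pair the libraries, and whether libraries of the same number share a batch was not tested. With the replicate block, 424 genes were called for Eed iKO and 1224 for the hair cycle, and 0 and 1 of the factors. For Eed iKO, the unadjusted p in limma with the block was 0.0058 for Nfatc1 (adjusted p = 0.095). It was 0.031 for Hopx and 0.044 for Lhx2. The recount with whole reads could not be made for the hair cycle table, where the depth is unknown, and 3 libraries per group limit the precision of every interval.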
